A study of Homo sapiens with 18 samples.

Results

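Interferon-stimulated genes are the genes that cells switch on when they sense interferon, and 48 of them were followed here in MDA-MB-231, an established human triple-negative breast cancer cell line. They were taken by gene symbol from a table of 62830 rows, and each of the 48 symbols matched 1 Ensembl gene. The series compared cells with an intact TRIM27 gene, labelled TRIM27-WT, with TRIM27 knockout cells, labelled TRIM27-KO. TRIM27 belongs to the tripartite motif proteins, many of which attach ubiquitin to other proteins. Each genotype was sequenced untreated, after 2 µM olaparib for 24 h (a drug that blocks PARP1 and PARP2, which act in DNA repair), and after transfection with an siRNA against PARP1 (siPARP1, 100 pM) for 48 h. All 6 groups held 3 libraries and carried the same batch label. No library used here is labelled as receiving DMSO or a non-targeting siRNA, so the untreated cells were the only controls. The effects of PARP1 knockdown, of transfection and of the longer time cannot be told apart. Nor can those of olaparib, of its solvent and of the 24 h of treatment. The labels do not say whether the knockout cells were 1 clone or a pool.

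As background, interferons bind receptors on the cell surface whose JAK kinases phosphorylate transcription factors in the cytoplasm. STAT2 and IRF9 act in the complex ISGF3, which binds a promoter element called the ISRE (interferon-stimulated response element), and a further element, GAS (gamma-activated site), serves the response to interferon gamma. Many of these genes encode sensors and effectors against viral RNA and DNA, and cancer cells can express a part of the set without an infection, for example when they sense their own DNA in the cytoplasm.

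Some promoters of members that differed in the comparisons described further on hold the ISRE core, and 7 that do are shown. The stretches printed here are from RefSeq on GRCh38.p14, run 5′ to 3′ on the strand of the gene and lie before its start site. Capitals mark matches to the ISRE core letters GAAANNGAAA, read on either strand, so that some appear as the reverse complement, and overlapping matches run together. The first 6 genes responded differently to siPARP1 in knockout and wild-type cells, and GBP1 was close to 0 in knockout cells. The windows of SAMD9L, OAS1, IFI35 and UBE2L6, which also differed, held no match.
IFIT1 (chr10:89392487-89392549, plus strand): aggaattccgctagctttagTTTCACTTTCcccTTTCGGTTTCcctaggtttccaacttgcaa
IFIT3 (chr10:89327821-89327904, plus strand): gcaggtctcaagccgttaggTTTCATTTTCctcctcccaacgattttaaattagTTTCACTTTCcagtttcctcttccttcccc
IFI6 (chr1:27672256-27672327, minus strand): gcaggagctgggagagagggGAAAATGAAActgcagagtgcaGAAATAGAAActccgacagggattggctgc
IFI44 (chr1:78649751-78649788, plus strand): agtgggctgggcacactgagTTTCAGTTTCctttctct
DDX60 (chr4:168318776-168318860, minus strand): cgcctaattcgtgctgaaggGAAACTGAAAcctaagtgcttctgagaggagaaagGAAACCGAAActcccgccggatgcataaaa
HERC5 (chr4:88456974-88457074, plus strand): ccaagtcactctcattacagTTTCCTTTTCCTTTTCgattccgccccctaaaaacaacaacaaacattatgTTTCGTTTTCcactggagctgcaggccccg
GBP1 (chr1:89065306-89065355, minus strand): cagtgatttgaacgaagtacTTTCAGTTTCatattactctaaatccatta

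Windows from 250 bases before to 50 bases after a start site were given for 39 of the 48 members. DHX58, IRF7, IFIT2, OAS2, OASL, MX2, USP18, IFITM2 and PARP10 had none. The ISRE core stood in a window of 26 of these 39 members (66.7%) and in 1255 of all 35116 windows (3.57%). The GAS core, TTCNNNGAA on either strand, stood in 12 of the 39 (30.8%) and in 2689 of all windows (7.66%). For both cores a member counted if any of its windows matched, and some members had several windows. The shares of all windows count each window singly, so they are not the same measure. Of the members whose siPARP1 response differed between genotypes, 9 had a window and 6 held the ISRE core, against 15 of 23 members whose response was not called different. The shares of both sets were close, and a match describes the letters in the window and no binding.

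All values are FPKM (fragments per kilobase of transcript, scaled to the mapped fragments of each library) as the authors deposited them. Depth is unknown because no read counts were used here, and between 14183 and 14584 genes reached 1 FPKM per library. TRIM27 RNA averaged 1.45 ± 0.243 FPKM in untreated wild-type and 0.623 ± 0.0663 FPKM in untreated knockout libraries (SD, n = 3), a difference of -0.59 on the log2(FPKM + 1) scale (adjusted p = 5.38e-04 by limma), and it was lower in knockout cells under both treatments too. RNA that remains does not show whether protein was made. PARP1 RNA went from 56.2 ± 2.57 to 10.7 ± 0.883 FPKM under siPARP1 in wild-type cells and from 55.2 ± 3.70 to 9.25 ± 0.472 FPKM in knockout cells. The cell type is labelled epithelial, and the markers were mixed. Of 8 epithelial markers, 4 reached 1 FPKM in some library, and the highest value on that list was 1578 FPKM. KRT8, KRT18 and KRT19 passed the filter described below, with KRT18 from 491 to 1249 FPKM, while EPCAM and CDH1 stayed below 1 FPKM in all 18 libraries. All 6 mesenchymal markers reached 1 FPKM, and VIM ran from 1564 to 2710 FPKM. Of 8 leukocyte markers, CD3E was listed at 0 in every library and only CD68 and CD14 reached 1 FPKM.

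Levels spread widely among members. IFITM3, an antiviral protein of cell membranes, had the highest mean over the 18 libraries, 282 FPKM, and its group means differed by 1.15 times at most. IFITM2, its close relative, followed at 65.0 FPKM, and as these genes are near copies of each other, how reads were split between them is uncertain. The DNA sensor IFI16 came next at 26.9 FPKM. At the other end, 8 members fell below the filter of at least 1 FPKM in at least 3 libraries, which left 40 for testing. The 8 were MX1, MX2, RSAD2, CMPK2, IFI27, IFI44L, XAF1 and EPSTI1, and EPSTI1 was listed at 0 in all 18 libraries. By group means, 19 of the 40 tested members were highest in wild-type cells under siPARP1, and 22 were lowest in knockout cells under olaparib. Shares of all tested genes were not taken for these counts by means. All 3 siPARP1 wild-type libraries lay above the other 15 libraries for 10 of the 40 tested members (6.24% of all tested genes), and all 3 olaparib knockout libraries lay below the other 15 for 13 (3.35% of all tested genes). OASL and OAS2, among those 10, passed the filter only through the siPARP1 wild-type libraries. Likewise, IRF7 passed only through siPARP1 libraries, and SAMD9L and GBP1 only through wild-type libraries. A high level in those groups was thus a condition of testing these genes. The interferon genes themselves were near 0, since none of 10 type I, II and III ligands exceeded 0.139 FPKM in any library and IFNL1 was listed at 0 throughout.

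Differences between groups were tested with limma on log2(FPKM + 1) in 1 fit of all 15764 genes that passed the filter, and a gene was called at a Benjamini-Hochberg adjusted p under 0.05. Log2 values below are differences on that scale, so the change of a gene at a low level appears smaller than it is. Whether the 3 libraries of a group are separate cultures is not stated, and p-values therefore rest on a spread among libraries that could be purely technical.

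A small set of members was lower in untreated knockout cells, led by SAMD9L, GBP1 and SAMD9. Of the 40 tested members 9 were lower, against 10.9% of all tested genes, and 2 were higher, against 9.58% of all tested genes. The median difference was -0.07 for the members and -0.01 for all genes. Under olaparib 12 were lower (7.16% of all genes) and 1 was higher (5.68% of all genes), with a median of -0.21 against -0.01. Under siPARP1 25 of 40, or 62.5%, were lower in knockout cells (11.2% of all genes) and 0 were higher (11.8% of all genes), with a median of -0.42 against 0.00 for all genes. The 0 higher members also held in the 7 other settings and with any library left out. At an unadjusted p under 0.05, 29 were lower and 0 were higher under siPARP1. Of all 15764 tested genes, 5395 differed at that threshold, counted in both directions together. Of the 25 calls, 20 held in all 7 other settings and with each library left out, and those of IRF1, IRF9, OAS3, PARP9 and PARP14 ended in some of them.

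**Figure D1:**
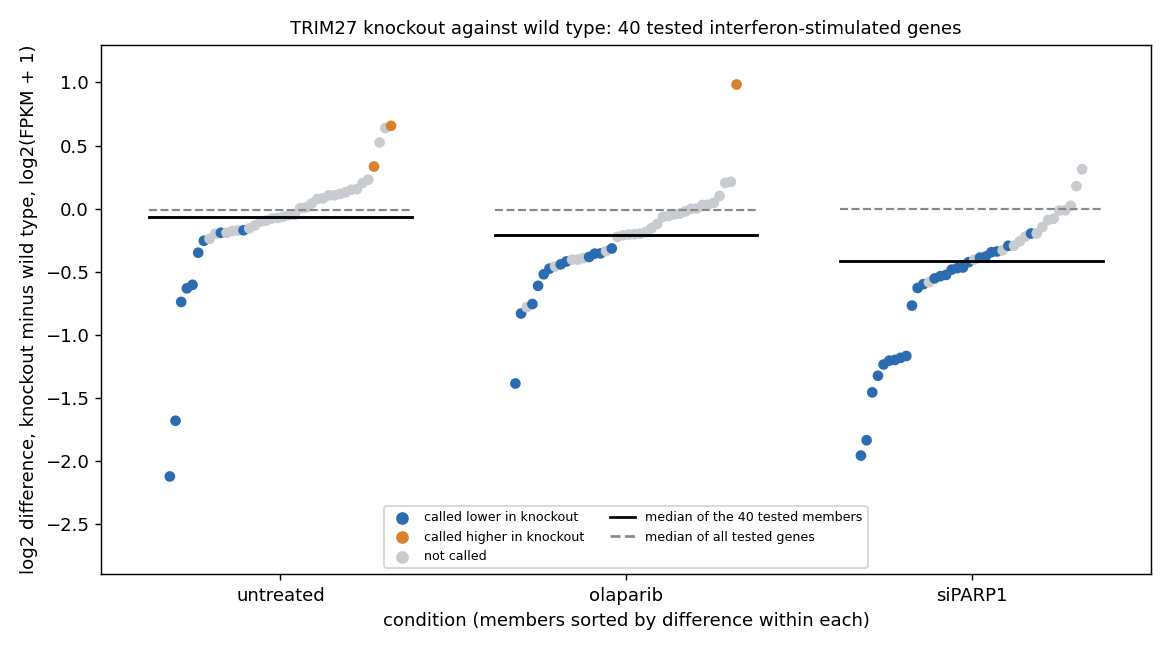
Each point is 1 of the 40 tested members, sorted along the x axis within each condition, and the y axis gives the log2 difference between TRIM27 knockout and wild type on the log2(FPKM + 1) scale. Solid lines are the members' medians (-0.07, -0.21 and -0.42) and dashed lines the medians of all tested genes, and the calls lower in knockout number 9, 12 and 25.

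SAMD9L and SAMD9 are neighbouring genes on chromosome 7 (chr7:93130055-93148369 and chr7:93099513-93118023, GRCh38, GENCODE 29) whose proteins restrict protein synthesis and growth. SAMD9L stood at 3.78, 4.83 and 3.97 FPKM in untreated wild-type libraries and at 0.251, 0.104 and 0.211 FPKM in untreated knockout libraries (log2 -2.12, SE 0.11, adjusted p = 9.88e-09). Under olaparib it was 2.16, 2.22 and 1.55 FPKM in wild-type and 0.104, 0.105 and 0.188 FPKM in knockout libraries (log2 -1.39, SE 0.11, adjusted p = 1.07e-06). With siPARP1 it was 3.10, 2.36 and 3.39 and 0.116, 0.0861 and 0.0947 FPKM (log2 -1.84, SE 0.11, adjusted p = 3.27e-08). The 9 knockout libraries thus lay between 0.0861 and 0.251 FPKM and the 9 wild-type libraries between 1.55 and 4.83 FPKM. SAMD9 was lower too, at 58.96% of the wild-type mean in untreated cells, with 24.6, 24.3 and 23.7 FPKM in untreated wild-type and 16.1, 10.99 and 15.7 FPKM in untreated knockout libraries (log2 -0.74, SE 0.10, adjusted p = 9.84e-05). Other tested genes within 5 Mb of SAMD9L and of SAMD9 had median differences of -0.22 and -0.19 between the untreated genotypes.

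GBP1 (chr1:89052319-89065360) encodes an interferon-induced GTPase that coats intracellular pathogens. Its level was 2.10, 2.46 and 3.06 FPKM in untreated wild-type libraries against 0.0830, 0.146 and 0.0601 FPKM in untreated knockout libraries (log2 -1.68, SE 0.10, adjusted p = 2.58e-08). Olaparib libraries held 1.04, 0.728 and 0.680 FPKM in wild-type and 0.0198, 0.0165 and 0.0125 FPKM in knockout cells (log2 -0.83, SE 0.10, adjusted p = 5.55e-05). The siPARP1 libraries held 1.78, 1.78 and 1.71 and 0.193, 0 and 0.113 FPKM (log2 -1.33, SE 0.10, adjusted p = 3.23e-07), where 1 knockout library was listed at 0. The genotypes did not overlap in any condition, and tested genes within 5 Mb of GBP1 had a median difference of 0.02 in untreated cells.

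**Figure D2:**
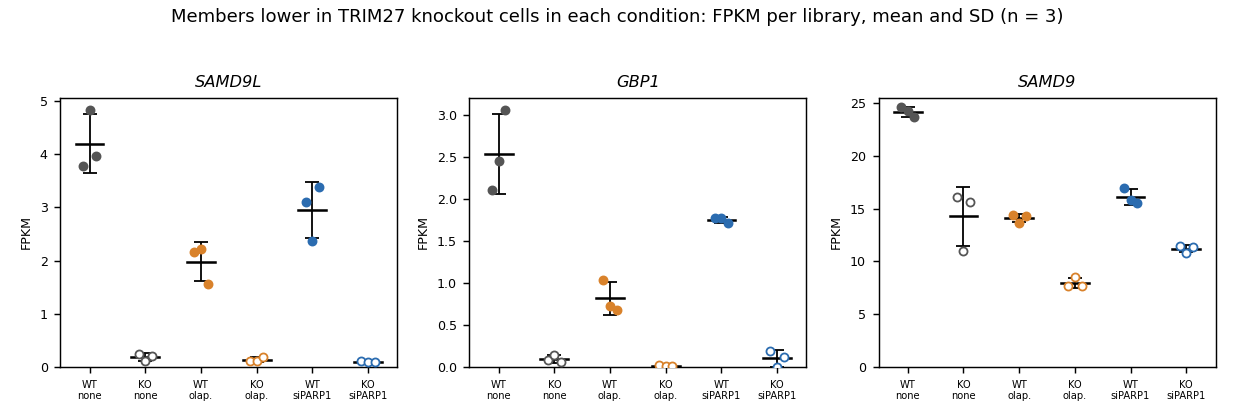
FPKM of SAMD9L, GBP1 and SAMD9 in every library (points, wild type filled and knockout open) with the mean and SD of the 3 libraries of each group on the x axis. The knockout libraries of SAMD9L lie at 0.251 FPKM or lower, and those of SAMD9 lie below the wild-type libraries of the same condition.

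Lower levels in knockout cells in each of the 3 conditions were called for 7 members, namely SAMD9L, GBP1, SAMD9, IFI44, IFI35, DTX3L and PARP14, where 3.22% of all tested genes had such calls. DTX3L is a ubiquitin ligase that pairs with PARP9, and PARP14 is a mono-ADP-ribosyltransferase. DTX3L was 9.71, 9.48 and 9.76 FPKM in untreated wild-type and 7.50, 6.83 and 7.76 FPKM in untreated knockout libraries (log2 -0.35, SE 0.05, adjusted p = 3.66e-04), and its differences were -0.52 under olaparib and -0.63 under siPARP1. PARP14 differed by less, -0.17, -0.42 and -0.20. OAS1, an enzyme that makes the 2-5A messenger on viral RNA, was 1.89, 2.63 and 2.51 FPKM in untreated wild-type and 1.01, 1.42 and 1.15 FPKM in untreated knockout libraries (log2 -0.60, SE 0.14, adjusted p = 0.00588). Several of these calls are close to the threshold. In untreated cells those of OASL, IFI35, PARP14 and HERC5 each ended when single libraries were left out (adjusted p from 0.0542 to 0.170), and the OAS1 call ended at a pseudocount of 0.1 (0.0571) and when transcript values were summed (0.469). The untreated PARP14 call ended in all 7 other settings too. Under olaparib the call of IFI44 (adjusted p = 0.0375) ended with any of the 6 libraries left out (0.0652 to 0.115) and with no filter. IFI16 had 23.8, 23.7 and 20.3 FPKM in wild-type and 13.6, 14.8 and 14.9 FPKM in knockout libraries under olaparib (log2 -0.61, SE 0.08, adjusted p = 1.41e-04).

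IFIT1 ran the other way. It encodes a protein that holds back viral RNA lacking normal cap methylation, and lies on chromosome 10 at chr10:89392546-89406486. Untreated wild-type libraries had 5.79, 6.39 and 6.02 FPKM and untreated knockout libraries 10.4, 10.3 and 9.75 FPKM (log2 0.66, SE 0.05, adjusted p = 4.60e-07). Under olaparib the values were 10.2, 11.01 and 10.6 FPKM in wild-type and 22.2, 21.8 and 21.8 FPKM in knockout libraries (log2 0.98, SE 0.05, adjusted p = 1.23e-08). Under siPARP1 the order turned, with 6.81, 6.59 and 6.50 FPKM in wild-type and 2.29, 2.21 and 2.59 FPKM in knockout libraries (log2 -1.18, SE 0.05, adjusted p = 8.58e-10). No library of one genotype reached those of the other in any condition. HERC5, the ligase that attaches ISG15 to proteins, was also higher in untreated knockout cells, at 5.38, 5.44 and 5.19 FPKM against 4.06, 4.15 and 3.88 FPKM (log2 0.33, SE 0.10, adjusted p = 0.0332).

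Under siPARP1 fewer members rose and more fell in knockout than in wild-type cells. In wild-type cells 13 of 40 members were higher (29.5% of all tested genes) and 10 were lower (22.3%), with a median of 0.09 against 0.07 for all genes. In knockout cells 3 were higher (31.9% of all genes) and 17 were lower (22.8%), with a median of -0.19 against 0.07. Shares of members in wild-type cells, 32.5% and 25%, were thus near those of all genes, while the 7.5% higher in knockout cells lay below theirs. These comparisons share their untreated libraries with those of olaparib. Rescaling each library to its Ensembl genes moved the median of all genes by -0.10 in wild-type and -0.12 in knockout cells, and it moved the share of higher genes among all calls from 57.0% to 43.0% in wild-type and from 58.4% to 43.0% in knockout cells. With summed transcripts 8 members in place of 13 were higher in wild-type cells. After the rescaling the members' counts were 11 higher and 11 lower in wild-type and 3 higher and 20 lower in knockout cells.

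The change itself differed between genotypes for 12 members, all with a lower response in knockout cells, where 2.52% of all tested genes had a call in that direction, and for 0 members in the other direction (2.74% of all genes; 1 at an unadjusted p under 0.05, and 0 in every other setting). The count of 12 ran from 9 to 13 over the 7 other settings and over the 12 fits that left out a library. At an unadjusted p under 0.05, 3035 of all 15764 tested genes had an interaction, counted in both directions together. The members' median interaction was -0.35, against 0.01 for all genes. Leading the 12 were IFIT1 (-1.84), IFI44 (-1.33), IFIT3 (-1.31), IFI6 (-1.13), OAS2 (-1.01) and OASL (-0.91), followed by OAS1, DDX60, HERC5, IFI35, DHX58 and UBE2L6 (-0.85 to -0.43).

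**Figure D3:**
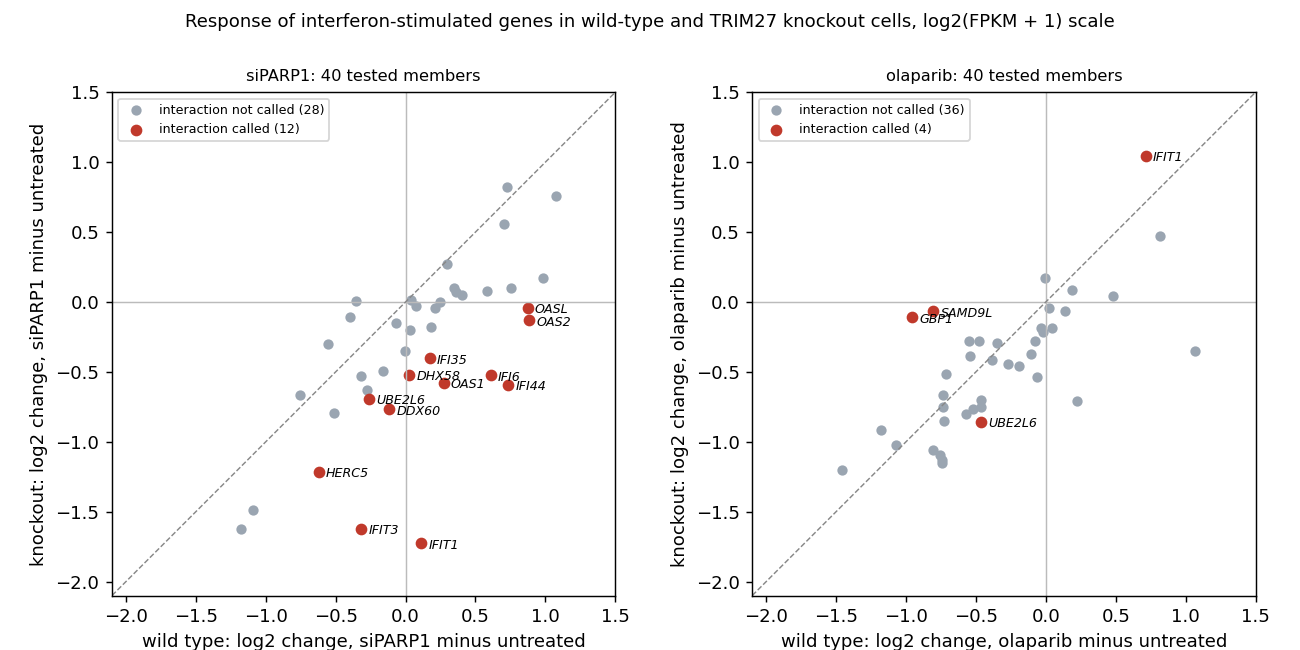
Log2 change from untreated cells on the log2(FPKM + 1) scale, in wild type (x axis) and knockout (y axis), for siPARP1 on the left and olaparib on the right; each point is a tested member, red where the response differed between genotypes, and the dashed line marks equal changes. The 12 red points under siPARP1 all lie below the line, and the 4 under olaparib lie on both sides of it.

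IFIT1 and IFIT3 fell under siPARP1 in knockout cells. IFIT1 went from 10.4, 10.3 and 9.75 to 2.29, 2.21 and 2.59 FPKM (log2 -1.73, SE 0.05, adjusted p = 2.46e-12), and in wild-type cells it was 5.79, 6.39 and 6.02 FPKM before and 6.81, 6.59 and 6.50 FPKM after (log2 0.11, SE 0.05, adjusted p = 0.0800), a difference that was not called. IFIT3, a partner of IFIT1 in the same complex, went from 13.9, 14.3 and 14.1 to 3.83, 4.03 and 3.85 FPKM in knockout (log2 -1.62, SE 0.05, adjusted p = 5.55e-12) and from 12.9, 12.2 and 14.1 to 9.96, 10.4 and 10.4 FPKM in wild type (log2 -0.32, SE 0.05, adjusted p = 1.35e-04). Both genotypes fell, and the fall was larger in knockout cells (interaction log2 -1.31, SE 0.07, adjusted p = 1.41e-07). IFIT2, of the same cluster, had uneven libraries (3.38, 17.9 and 17.1 FPKM in untreated knockout cells, 2.84, 2.80 and 2.50 FPKM after siPARP1), and its call in knockout cells (adjusted p = 0.0395) ended without untreated knockout library 2 (0.146) or 3 (0.141) and in 7 other fits.

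IFI44 and IFI6 rose in wild-type cells and fell in knockout cells. IFI44, an interferon-induced cytoplasmic protein, went from 2.69, 3.08 and 2.88 to 5.69, 5.96 and 4.78 FPKM in wild type (log2 0.73, SE 0.11, adjusted p = 7.26e-05) and from 1.36, 1.69 and 1.46 to 0.408, 1.04 and 0.592 FPKM in knockout (log2 -0.59, SE 0.11, adjusted p = 4.35e-04). Knockout cells under siPARP1 held 12.4% of the wild-type mean. IFI6, a membrane protein that limits cell death and flavivirus replication, went from 9.12, 10.5 and 8.39 to 14.8, 14.6 and 14.7 FPKM in wild type (log2 0.61, SE 0.16, adjusted p = 0.00449). In knockout cells it went from 8.10, 8.99 and 8.70 to 6.47, 6.47 and 4.30 FPKM (log2 -0.52, SE 0.16, adjusted p = 0.0105), a call that ended without siPARP1 knockout library 3 (adjusted p = 0.0602). The 3 wild-type siPARP1 libraries were above all other libraries for both genes. IFI35 showed the same pair of calls, but its rise in wild-type cells (0.17) ended under both other scalings (adjusted p = 0.171 and 0.485).

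All 4 members of the OAS family were lower in knockout than in wild-type cells under siPARP1 (11.2% of all tested genes). OASL, a relative of the OAS enzymes without their activity, went from 0.436, 0.727 and 0.671 to 1.78, 1.97 and 2.09 FPKM in wild type (log2 0.87, SE 0.09, adjusted p = 9.24e-07) and from 0.336, 0.354 and 0.346 to 0.334, 0.396 and 0.203 FPKM in knockout (-0.04, adjusted p = 0.724). OAS2 was 0.810, 0.954 and 0.937 FPKM before and 1.77, 3.17 and 2.71 FPKM after siPARP1 in wild type (log2 0.88, SE 0.15, adjusted p = 1.57e-04). In knockout cells it was 0.678, 0.383 and 0.981 and 0.506, 0.430 and 0.620 FPKM (-0.13, adjusted p = 0.475). Wild-type libraries under siPARP1 lay above all others for OASL and OAS2. Both genes passed the filter only through these libraries, so a high level there was a condition of being tested. They also enter the counts of OAS members, of members lower in knockout cells under siPARP1 and of interactions. OAS1 had 3.33, 2.52 and 3.26 FPKM in wild-type and 0.837, 0.381 and 0.236 FPKM in knockout cells under siPARP1 (log2 -1.46, SE 0.14, adjusted p = 3.81e-06), and it fell from the untreated level in knockout cells (log2 -0.58, SE 0.14, adjusted p = 0.00239). Its interaction (adjusted p = 0.0204) ended in 4 other settings and with 3 of the libraries left out, and that of OAS2 ended at a pseudocount of 0.1 (adjusted p = 0.0595).

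**Figure D4:**
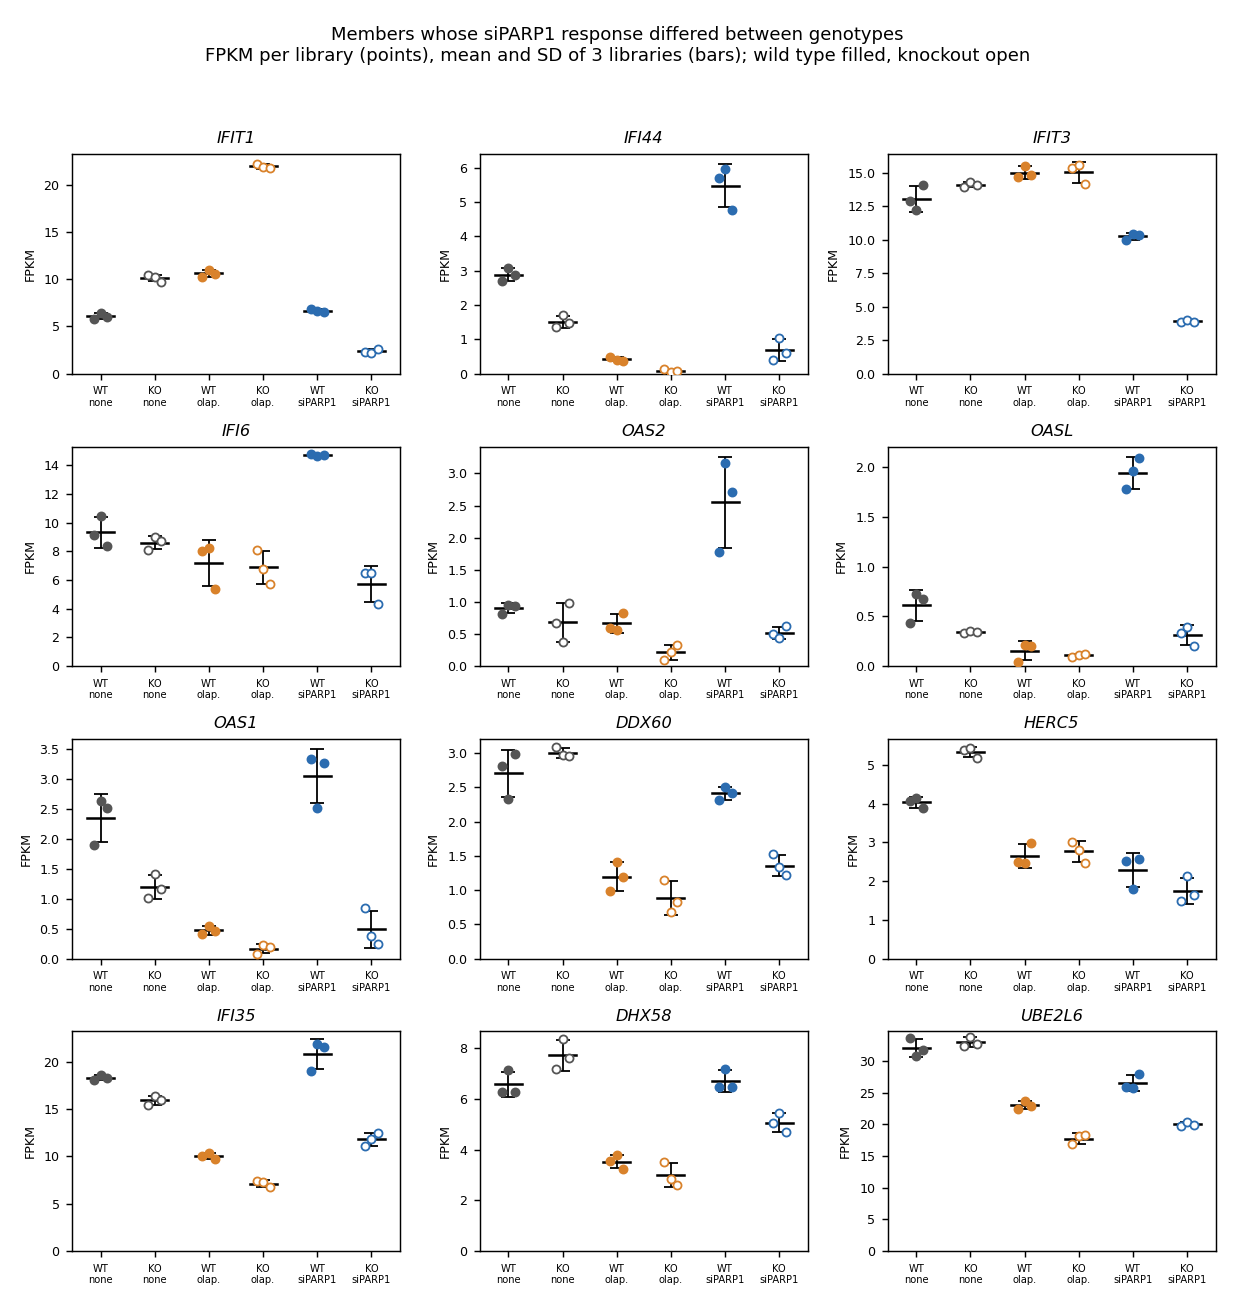
FPKM in every library (points; grey untreated, orange olaparib, blue siPARP1) of the 12 members whose siPARP1 response differed between genotypes, with the mean and SD of the 3 libraries of each group; wild type is filled and knockout open. In all 12 panels the knockout siPARP1 mean lies below the wild-type siPARP1 mean.

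Under siPARP1, 4 of the 5 sensors and 2 of the 5 members of the ISG15 system were lower in knockout cells (11.2% of all tested genes). DHX58, a regulator of the RIG-I-like receptors, was 6.47, 7.19 and 6.45 FPKM in wild-type and 5.06, 5.44 and 4.69 FPKM in knockout cells under siPARP1 (log2 -0.35, SE 0.09, adjusted p = 0.0106), where its interaction ended without siPARP1 knockout library 3 (0.0502) or untreated wild-type library 1 (0.0512). DDX60, a helicase of the same pathway, had 2.31, 2.51 and 2.42 and 1.52, 1.33 and 1.22 FPKM (log2 -0.54, SE 0.10, adjusted p = 0.00109). IFIH1, the sensor MDA5, was 8.33, 9.67 and 11.00 and 5.77, 6.74 and 5.54 FPKM (log2 -0.60, SE 0.08, adjusted p = 1.15e-04). DDX58, the sensor RIG-I, rose in wild-type cells from 3.94, 4.43 and 2.03 to 7.21, 7.40 and 8.08 FPKM (log2 0.98, SE 0.21, adjusted p = 0.00107), a call that ended with summed transcripts (adjusted p = 0.127). ISG15, the ubiquitin-like modifier, rose in both genotypes, from 6.45, 5.82 and 6.06 to 13.7, 13.7 and 14.6 FPKM in wild type (log2 1.08, SE 0.09, adjusted p = 1.49e-07) and from 6.07, 5.62 and 5.70 to 10.3, 10.5 and 10.7 FPKM in knockout (log2 0.76, SE 0.09, adjusted p = 4.61e-06). UBE2L6, its conjugating enzyme, fell in both (-0.26 and -0.69), more in knockout cells (interaction log2 -0.43, SE 0.07, adjusted p = 0.00169). HERC5 fell in both genotypes (-0.62 and -1.21), and its interaction ended in 3 other settings and with 8 of the libraries left out.

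The transcription factors did not move as 1 block. STAT2 rose under siPARP1 in both genotypes, from 6.35, 7.13 and 5.75 to 11.8, 10.5 and 11.4 FPKM in wild type (log2 0.73, SE 0.09, adjusted p = 6.48e-06) and from 6.64, 7.12 and 6.69 to 12.7, 12.6 and 13.2 FPKM in knockout (log2 0.82, SE 0.09, adjusted p = 1.58e-06), and the wild-type call ended with summed transcripts (adjusted p = 0.0754). IRF7, the factor that amplifies interferon production, rose in both, from 0.761, 0.451 and 0.476 to 1.27, 1.63 and 1.74 FPKM (log2 0.71, SE 0.11, adjusted p = 9.76e-05) and from 0.457, 0.626 and 0.604 to 1.61, 0.969 and 1.34 FPKM (log2 0.56, SE 0.11, adjusted p = 6.86e-04). IRF1, which is itself induced through GAS, fell in both, from 9.64, 9.92 and 10.8 to 4.76, 4.46 and 3.51 FPKM (log2 -1.09, SE 0.14, adjusted p = 1.46e-05) and from 8.88, 8.23 and 11.8 to 2.62, 2.56 and 3.12 FPKM (log2 -1.48, SE 0.14, adjusted p = 5.54e-07). IRF9 rose in wild-type cells, from 2.69, 3.05 and 1.98 to 4.01, 4.56 and 4.36 FPKM (log2 0.58, SE 0.14, adjusted p = 0.00239), while knockout cells had 2.92, 3.28 and 2.11 and 2.55, 3.36 and 2.99 FPKM (0.08, adjusted p = 0.646). A same-strand annotated locus covers 93.5% of the exon bases of IRF9, so its value is uncertain, and its wild-type call ended with summed transcripts (adjusted p = 0.102).

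Of the members below the filter, MX1, the GTPase that blocks viral nucleocapsids, was 0.573, 0.434 and 0.337 FPKM in untreated and 1.10, 1.32 and 0.983 FPKM in siPARP1 wild-type libraries, against 0.354, 0.269 and 0.151 and 0.0807, 0.216 and 0.209 FPKM in knockout libraries. CMPK2 and IFI44L were listed at 0 in all untreated wild-type libraries and at 0.0598, 0.0831 and 0.176 and 0.0562, 0.0266 and 0.0626 FPKM in the siPARP1 wild-type libraries. Both were listed at 0 in all siPARP1 knockout libraries. RSAD2, encoding viperin, was 0.113, 0.119 and 0.374 FPKM in wild-type siPARP1 libraries and listed at 0 in the 3 knockout ones. Of the other members below the filter, IFI27 and MX2 overlapped between the genotypes under siPARP1, XAF1 was listed at 0 in 1 wild-type and all 3 knockout libraries, and EPSTI1 was listed at 0 throughout.

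Other markers moved along with these groups. Summed FPKM of the 8 leukocyte markers was 19.7 to 24.5 in wild-type and 9.69 to 10.6 in knockout cells under siPARP1, against 10.9 to 11.7 and 7.98 to 9.97 in untreated cells. Nearly all of it was CD68, a lysosomal protein (log2 -0.77, SE 0.13, adjusted p = 0.00254 for the interaction), while PTPRC, which all leukocytes carry, never exceeded 0.0476 FPKM and CD3E was listed at 0. Summed FPKM of the 8 epithelial markers was 1106 to 1204 in wild-type and 955 to 979 in knockout cells under siPARP1, against 2417 to 2636 and 2585 to 2837 in untreated cells. The part of either list in the members' differences was not tested.

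Most of the tested members were lower after olaparib than in untreated cells in both genotypes. In wild-type cells 23 of 40 were lower (20.4% of all tested genes) and 5 were higher (24.9%), with a median of -0.46 against 0.03 for all genes. In knockout cells 24 were lower (22% of all genes) and 2 were higher (25.2%), with a median of -0.43 against 0.03. The genotypes have separate controls, and 20 members were lower in both (15.7% of all tested genes) while IFIT1 and PARP10 were higher in both (18.5%). Rescaling to Ensembl genes moved the share of higher genes among all calls from 53.4% to 43.2% in knockout cells, with 25 members lower and 2 higher.

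All 5 members of the ISG15 system fell in both genotypes, where 15.7% of all tested genes were lower in both. The call of ISG15 in knockout cells (log2 -0.28, SE 0.09, adjusted p = 0.0182) ended, however, with each of 3 libraries left out (0.0517 to 0.0624), namely olaparib knockout libraries 1 and 3 and untreated knockout library 1. USP18, which removes ISG15 from proteins and damps receptor signalling, went from 2.84, 2.23 and 2.82 to 0.478, 0.775 and 0.934 FPKM in wild type (log2 -1.07, SE 0.12, adjusted p = 4.32e-06) and from 2.06, 2.70 and 2.59 to 0.561, 0.620 and 0.914 FPKM in knockout (log2 -1.02, SE 0.12, adjusted p = 6.55e-06). IFI44 went from 2.69, 3.08 and 2.88 to 0.477, 0.411 and 0.362 FPKM in wild type (log2 -1.45, SE 0.11, adjusted p = 1.08e-07) and from 1.36, 1.69 and 1.46 to 0.122, 0.0557 and 0.0790 FPKM in knockout (log2 -1.21, SE 0.11, adjusted p = 7.24e-07). No treated library reached an untreated one for either gene. OAS1 fell to 19.98% of the untreated mean in wild-type (log2 -1.18, SE 0.14, adjusted p = 6.88e-06) and to 13.6% in knockout cells (log2 -0.91, SE 0.14, adjusted p = 7.31e-05). IFI35 went from 18.05, 18.6 and 18.3 to 10.1, 10.3 and 9.70 FPKM (log2 -0.81, SE 0.06, adjusted p = 4.46e-08) and from 15.4, 16.4 and 16.00 to 7.38, 7.26 and 6.76 FPKM (log2 -1.06, SE 0.06, adjusted p = 2.29e-09).

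Of the 5 sensors, 4 fell in both genotypes (15.7% of all tested genes). IFI16, a DNA sensor, went from 41.2, 35.9 and 38.1 to 23.8, 23.7 and 20.3 FPKM in wild type (log2 -0.74, SE 0.08, adjusted p = 3.76e-06) and from 34.4, 32.01 and 33.4 to 13.6, 14.8 and 14.9 FPKM in knockout (log2 -1.15, SE 0.08, adjusted p = 3.49e-08). DHX58 was at 3.55, 3.77 and 3.24 FPKM in wild-type and 3.52, 2.85 and 2.59 FPKM in knockout cells (log2 -0.74 and -1.13 from untreated), and DDX60 at 0.986, 1.41 and 1.18 and 1.15, 0.674 and 0.821 FPKM (log2 -0.76 and -1.10). The 6 olaparib libraries lay below the 6 untreated ones for DHX58 and for DDX60. GBP1 and SAMD9L fell in wild-type cells (-0.96 and -0.81), where knockout cells had little RNA of either to begin with (-0.11 and -0.07, neither called).

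IFIT1 rose under olaparib in both genotypes (log2 0.72, SE 0.05, adjusted p = 4.45e-08 in wild type, log2 1.04, SE 0.05, adjusted p = 7.41e-10 in knockout). PARP10, a mono-ADP-ribosyltransferase, rose from 2.54, 1.82 and 1.70 to 4.59, 3.76 and 4.51 FPKM in wild type (log2 0.81, SE 0.11, adjusted p = 4.45e-05) and from 2.79, 2.37 and 1.77 to 3.55, 3.47 and 3.64 FPKM in knockout (log2 0.47, SE 0.11, adjusted p = 0.00358). IFIT5 rose in wild-type cells, from 5.70, 13.8 and 6.46 to 17.5, 18.3 and 18.1 FPKM (log2 1.07, SE 0.33, adjusted p = 0.0162), but untreated library 2 stood apart at 13.8 FPKM and the call ended without library 1 (adjusted p = 0.0744) or 3 (0.0627). STAT2 rose in wild type (11.1, 8.36 and 8.68 FPKM under olaparib, log2 0.48, SE 0.09, adjusted p = 3.93e-04, a call that ended with summed transcripts at 0.0878) and was 7.11, 7.15 and 6.91 FPKM in knockout cells (0.04, adjusted p = 0.704). IRF9 fell in knockout cells to 1.82, 1.75 and 1.21 FPKM (log2 -0.53, SE 0.14, adjusted p = 0.00482). IRF1 and IRF7 were called in neither genotype, with differences of -0.01 and 0.17 for IRF1 and -0.08 and -0.28 for IRF7.

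The olaparib response differed between genotypes for 4 members. Of these, 3 had a less negative or more positive response in knockout cells on the log2(FPKM + 1) scale, where 1.4% of all genes had such a call. They were GBP1 (log2 0.85, SE 0.14, adjusted p = 0.00412), SAMD9L (log2 0.74, SE 0.16, adjusted p = 0.0199) and IFIT1 (log2 0.33, SE 0.07, adjusted p = 0.0240). GBP1 and SAMD9L had little RNA in knockout cells, so their changes there appear smaller on that scale than they are. UBE2L6 had the stronger fall in knockout cells (log2 -0.40, SE 0.07, adjusted p = 0.00508, with 1.66% of all genes). It went from 32.4, 33.8 and 32.7 to 16.8, 18.2 and 18.3 FPKM in knockout and from 33.6, 30.9 and 31.8 to 22.5, 23.7 and 22.9 FPKM in wild type. With a pseudocount of 0.1 the count of the first kind went from 3 to 0, as GBP1 had an adjusted p of 0.435, SAMD9L of 0.261 and IFIT1 of 0.0689. Without untreated wild-type library 2 it was 1.

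Set directly against each other, olaparib-treated cells had lower levels than siPARP1-treated cells for most members, although times and delivery differed. In wild type 27 of 40 were lower under olaparib (28.3% of all genes) and 6 were higher (23.4%), and in knockout 21 were lower (29.7%) and 6 were higher (22.4%). The members' medians were -0.56 and -0.33, against -0.05 and -0.06 for all genes. IFI44 had the largest difference in wild type (log2 -2.19, SE 0.11, adjusted p = 8.69e-10), followed by ISG15 (log2 -1.62, SE 0.09, adjusted p = 1.71e-09). IFIT1 went the other way in knockout cells, at 928% of the siPARP1 mean (log2 2.77, SE 0.05, adjusted p = 5.49e-14), as did IFIT3 (log2 1.71, SE 0.05, adjusted p = 3.07e-12) and IRF1 (log2 1.65, SE 0.14, adjusted p = 1.88e-07).

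Other genes of the pathway were read from lists by role. None of the 10 ligands passed the filter. With siPARP1 against untreated, 3 of the 9 tested genes of receptors and their signalling were higher (29.5% of all tested genes) and 2 lower (22.3%) in wild type, and 4 were higher (31.9%) and 1 lower (22.8%) in knockout. JAK1 fell in both (-0.50 and -0.59), although summed transcripts gave -0.03 (adjusted p = 0.959) in wild-type and 0.46 (adjusted p = 0.275) in knockout cells. TYK2 (0.58) and the receptor chain IFNAR1 (0.76) rose in knockout cells, and both calls ended with summed transcripts (adjusted p = 0.389 and 0.128). Of 14 tested genes of nucleic acid sensing and editing, 4 were higher (24.9% of all tested genes) and 5 lower (20.4%) under olaparib in wild type. In knockout 3 were higher (25.2%) and 5 lower (22%). Among the lower ones CGAS, which makes the messenger for STING1 on cytoplasmic DNA, fell under olaparib in both genotypes (log2 -0.71, SE 0.06, adjusted p = 3.10e-07 and log2 -0.57, SE 0.06, adjusted p = 2.68e-06). The kinase TBK1 rose under siPARP1 in both (0.74 and 0.53) and was lower in knockout than wild-type cells there (log2 -0.32, SE 0.05, adjusted p = 1.59e-04), a difference that turned to 0.09 with summed transcripts (adjusted p = 0.694). Of 4 tested negative regulators, SOCS3 fell under siPARP1 (-0.61 and -0.77) and rose under olaparib (0.41 and 0.42) in both genotypes. Under siPARP1, 1 of 11 tested antigen presentation genes was lower in knockout than in wild-type cells (11.2% of all tested genes), and 0 were higher (11.8%).

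A further list of 47 interferon-stimulated genes outside the 48 had 36 tested genes. In knockout against wild type, 5 were higher (9.58% of all tested genes) and 9 lower (10.9%) without treatment. With olaparib 0 were higher (5.68%) and 5 lower (7.16%), and with siPARP1 0 were higher (11.8%) and 12 lower (11.2%) (median -0.16). TRIM22, an antiviral ubiquitin ligase, was lower in knockout cells in all 3 conditions (log2 -0.89, SE 0.06, adjusted p = 1.63e-07; -0.84 and -0.84 in the other conditions). CASP1, the inflammasome protease, was lower in knockout cells under siPARP1 (log2 -1.21, SE 0.09, adjusted p = 2.18e-07). The siPARP1 response differed between genotypes for 7 of the 36, with 2 higher (2.74% of all tested genes) and 5 lower (2.52%) in knockout cells. APOL6, an apolipoprotein L family member, fell under olaparib in both genotypes (-0.91 and -1.27).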

How the data were processed

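RNA sequencing libraries of 18 samples in 6 groups of 3 were analysed. Values are FPKM, fragments per kilobase of transcript scaled to mapped fragments, as deposited by the authors in a table per gene (62830 rows, of which 970 are unnamed loci) and a second one per transcript. Per the submitters' processing notes, the software was DESeq2 1.38.3, StringTie 2.2.1, HISAT2 2.2.1, fastp 0.23.2 and featureCounts 2.0.3, with GRCh38 as the build. Which tool made the FPKM values, the annotation and the strand setting are not given in the sources used here. Depth is unknown, and the steps between low values put relative depth at 0.749 to 1.24 times that of untreated wild-type library 1. FPKM values are shares of a library, and unnamed loci held 43.4 to 49.8% of the summed FPKM, less in treated cells.

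Genes that reached 1 FPKM in 3 or more libraries were kept, and log2(FPKM + 1) was fitted with limma 3.58.1 in R 4.3.3, with 1 mean per group, a mean-dependent prior variance and 12 residual degrees of freedom. P-values were adjusted by Benjamini-Hochberg across the 15764 genes tested, and the 11 comparisons include both interactions. SE is a standard error and SD a standard deviation over 3 libraries. The fit was tested on simulated data. The members, the lists and the rule for named genes were chosen with earlier results of these data known. The rule named up to 5 called members per comparison by size of change whose higher group averaged 1 FPKM or more, up to 6 called in an interaction, the transcription factors STAT2, IRF9, IRF1 and IRF7, the 3 most abundant members and up to 3 called genes per pathway list; further members were named to complete a family or a pattern, after their values were seen. Pathway genes given by the rule are described only in part. Alternatives were a pseudocount of 0.1, no filter, median-of-ratios scaling, rescaling to Ensembl genes, only the groups compared, a replicate block, summed transcripts, and leaving out each library. In GENCODE 29, exons of 12 members overlap exons of another gene, 10 of them on the opposite strand, and the overlap covers over 20% of the exon bases of IRF9, IFITM3 and XAF1. Promoter windows are RefSeq sequences on GRCh38.p14.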

Additional observations from a re-analysis of the deposited data

Results flagged for a closer look

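The response to a treatment differed between wild-type and TRIM27 knockout cells for 16 pairs of member and treatment, by the interaction term of limma at an adjusted p under 0.05. Values are the change in knockout cells minus the change in wild-type cells on the log2(FPKM + 1) scale, each from 3 libraries per group. For siPARP1 they were DHX58 (-0.55), DDX60 (-0.65), IFIT1 (-1.84), IFIT3 (-1.31), OAS1 (-0.85), OAS2 (-1.01), OASL (-0.91), UBE2L6 (-0.43), HERC5 (-0.59), IFI6 (-1.13), IFI35 (-0.58) and IFI44 (-1.33). For olaparib they were IFIT1 (0.33), GBP1 (0.85), UBE2L6 (-0.40) and SAMD9L (0.74). IFIT1 and UBE2L6 stand in both sets, and UBE2L6 was negative in both while IFIT1 was not. The 3 positive olaparib values include GBP1 and SAMD9L, which were near 0 FPKM in knockout cells before and after treatment. Why the responses differ was not tested.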

How the results depend on the processing

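For the genes named by rule, 2159 values under an alternative kept their side of the threshold, and those called kept their direction. Values called in neither fit are counted there even if their sign changed. A further 166 lost their call in the same direction, 11 gained one, and 6 turned where either fit had a call. With summed transcripts, MYD88 in knockout against wild type came to -0.073 untreated (adjusted p = 0.928 by limma, as below) and -0.294 under olaparib (0.695), TBK1 in the same contrast under siPARP1 to 0.0907 (0.694), and JAK1 under siPARP1 in knockout cells to 0.463 (0.275). After rescaling to Ensembl genes, PTPN1 under siPARP1 came to -0.0167 in wild-type (0.708) and -0.0216 in knockout cells (0.613). Members higher in untreated knockout cells went from 2 to 1 at a pseudocount of 0.1, with no filter and with the replicate block, and ranged from 1 to 2 with 1 library left out. Those lower ran from 6 to 7 with 1 library left out, against 9. Under olaparib, members higher in knockout cells ranged from 1 to 2, with 2 only without wild-type library 2. With summed transcripts, members higher in wild-type cells went from 5 to 2 under olaparib and from 13 to 8 under siPARP1. Positive olaparib interactions went from 3 to 0 at a pseudocount of 0.1 and ranged from 1 to 3 with 1 library left out. Negative ones went from 1 to 2 after rescaling to Ensembl genes and ranged from 1 to 3, with 3 without olaparib knockout library 1 and 2 without untreated wild-type library 2 or olaparib wild-type library 3. The cause of these changes was not tested. The other counts of called members stayed within 1.5 times their value in all settings run. Any pairing of libraries by replicate number was weak. Deviations of same-numbered libraries correlated at -0.0707 to 0.0871 over 45 pairs, and those of other-numbered ones at -0.107 to 0.0591 over 90 pairs. Still, 14 of 18 libraries correlated best with a library of their own number, so a weak pairing remains possible. With no read counts, how far depth limits members near or below 1 FPKM is unknown.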
